A study of Gallus gallus with 4 samples.

Results

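The inflammatory and secretory genes PTGS2, IGFBP7, CXCL14, SERPINE2 and IL16 were followed in the immortal chicken fibroblast line DF-1 against primary chicken embryo fibroblasts (CEF). They are 5 of the 936 genes on the arrays to which a symbol could be given, and 5 of 42034 gene probes, since 1 probe was matched to each. A probe was assigned to a gene where its sequence accession was the one that the study tabulates for that gene. Any further probe of the same gene under another accession would go unseen. The 5 genes were picked because their ratios in this same contrast were low, so that their ratios are given as a description, without any test.

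RNA of DF-1 cells, a spontaneously immortalized line from endogenous-virus-free (Line 0) embryos that was used at late passage, was compared with RNA of primary CEF at passage 4, fibroblasts dissociated from 10-day-old embryos of specific-pathogen-free flocks. Both RNAs were hybridized together on each of 4 Agilent 2-color arrays, with DF-1 in Cy5 and CEF in Cy3 every time, so that dye and cell line cannot be told apart for a single probe in these ratios. By the methods, spike-in RNAs were added to adjust for dye effects, and PTGS2 was also measured by qPCR, whose values were not used here. The embryos behind the CEF were not those from which DF-1 was derived, and DF-1 is 1 line, so that genetic origin, immortalization and time in culture differ together. The labels number the arrays as replicates 1 to 4, and the methods call the 4 replicates of each cell line biological. The deposited design statement, however, speaks of 1 sample per cell type, and if that held, the SD over arrays would measure the repetition of the assay. No group was treated with an inflammatory agent, and senescence of the cells was not measured in these data. In such bulk RNA, fewer cells of a type and less RNA per cell cannot be told apart.

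PTGS2 encodes the inducible cyclooxygenase, an enzyme that turns arachidonic acid into the precursor of the prostaglandins, and its chicken form was identified in fibroblasts as a transcript induced by the src oncogene. CXCL14 is a chemokine that attracts monocytes and dendritic cells, and IL16 is a cytokine that attracts CD4+ cells and is cut from an intracellular precursor. IGFBP7 is a secreted protein that binds insulin-like growth factors weakly and lies in basement membranes, and SERPINE2, protease nexin-1, is a secreted inhibitor of thrombin, urokinase and plasmin. Mammalian fibroblasts that stop dividing after many passages or after damage release a mixture of cytokines, chemokines, growth factor binding proteins, proteases and protease inhibitors, the senescence-associated secretory phenotype, and IGFBP7, SERPINE2 and products of PTGS2 have been described in it. In the localization that the study's own gene table gives, 4 of the 5 were extracellular, and PTGS2, an enzyme that is not itself secreted, was cytoplasmic.

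Each value rests on a single 60-base oligonucleotide. Its match to the gene rests on the tabulated accession, and no probe was aligned to a transcript or genome here. The probe sequences are listed below. They are given 5′ to 3′ from the study's probe table, whole for IGFBP7, whose probe has 0 forward reading frames with a stop codon, and as the first 30 bases for the other 4, whose probes have a stop codon in 1 or 2 of the 3 forward frames.
PTGS2: acccaacctgctgggtttggctgggttcaa
IGFBP7: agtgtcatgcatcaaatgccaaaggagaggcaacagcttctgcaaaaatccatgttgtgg
CXCL14: tatagccacgtgcaaaaggcttccagattc
SERPINE2: atagtgcatgtatcactgagagttttaaaa
IL16: acatacaagtttactgcctgttagagaaag

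The whole probes had a GC content of 45.0% for PTGS2, IGFBP7 and CXCL14, 35.0% for SERPINE2 and 38.3% for IL16, against a median of 43.3% over the 1773 probes with a tabulated sequence (5th to 95th percentile, 35.0% to 55.0%). None of the 5 shared a run of 15 bases with any of the 1772 other probes of that table. The probe sequences thus differ from one another, and the 5 ratios are readings of separate oligonucleotides.

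The 5 genes were lower in DF-1 cells than in CEF on every array, by 10.2-fold for IL16 up to 94.6-fold for PTGS2. Their mean log2 ratios of DF-1 over CEF had a median of -5.34, while the median over all 42034 gene probes was 0.22 and that over the 958 probes with a symbol was -0.85. Of all gene probes, 2548 (6.06%) were called lower and 2571 (6.12%) higher, together 12.2%, at an unadjusted p under 0.05 from limma and a change of over 2 fold. Of the probes with a symbol, 42.4% were called lower and 42.6% higher, 85.0% in all, since 909 of these 958 symbols come from tables of genes that the study chose on these arrays. All 5 genes lay below the 1st percentile of the gene probes, which was -3.18, and 361 probes (0.859%) were at or below IL16, the least reduced of them. Nothing is read from these counts for the 5 genes, which were picked on this contrast.

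**Figure D1:**
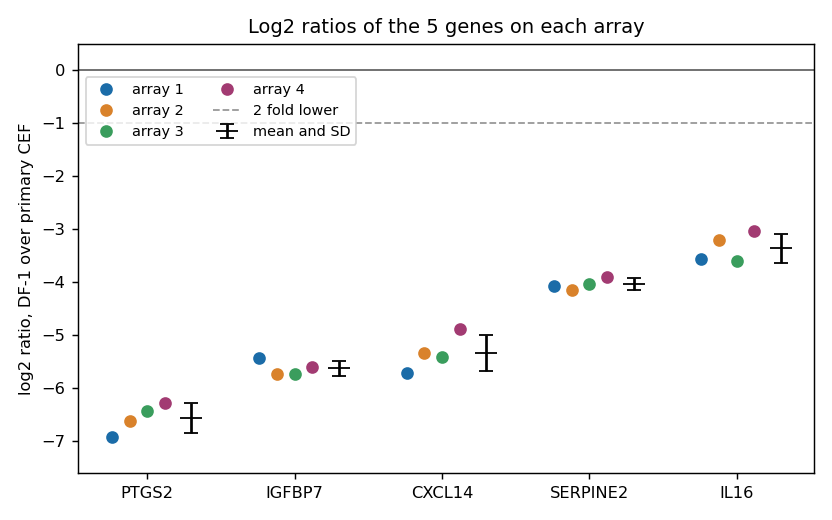
Log2 ratio of DF-1 over primary CEF (vertical axis) for PTGS2, IGFBP7, CXCL14, SERPINE2 and IL16 on arrays 1 to 4 (coloured points), with the mean and SD over the 4 arrays beside them, a solid line at 0 and a dashed line at 2 fold lower. Every point lies under the dashed line, from -6.92 for PTGS2 on array 1 up to -3.04 for IL16 on array 4.

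**Figure D2:**
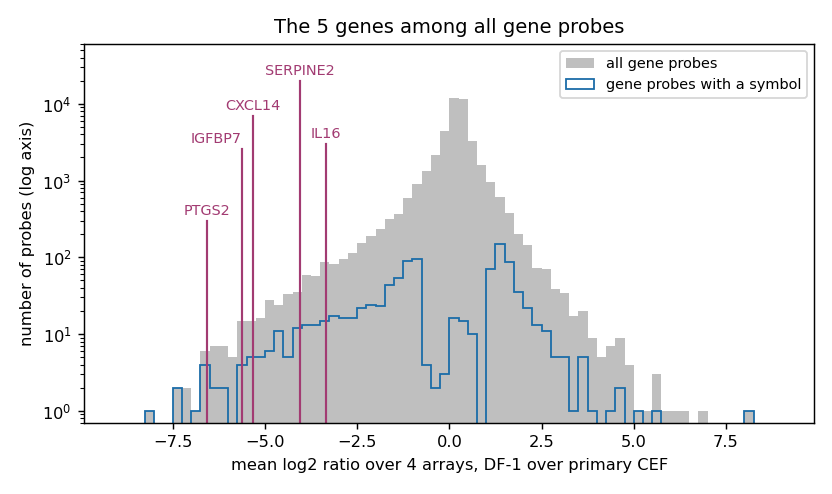
Number of probes (logarithmic vertical axis) by mean log2 ratio of DF-1 over primary CEF in bins of the horizontal axis, for all 42034 gene probes (grey) and the 958 with a symbol (blue outline), with vertical lines at the 5 genes. The lines stand in the left tail, and the outline has few probes near 0 because most symbols come from genes chosen for their change.

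PTGS2 had log2 ratios of -6.92, -6.63, -6.42 and -6.28 on arrays 1 to 4, a DF-1 signal of 0.824%, 1.01%, 1.17% and 1.29% of the CEF signal. It was the lowest of the 5 genes on 4 of 4 arrays and was most reduced on array 1 and least on array 4. The mean was -6.56 ± 0.28 (SD, n = 4 arrays), or 94.6-fold lower in DF-1, and only 8 of the 42034 gene probes had a lower mean.

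Other genes listed with eicosanoid enzymes and receptors had means below 0, apart from a receptor of phospholipases. Of 44 listed, 5 had a symbol on the arrays. Without PTGS2, 2 of the other 4 were called lower and 1 higher, with a median log2 ratio of -1.02. As with every list here, nearly all members carry a symbol because the study had chosen them on these arrays, so that these counts are not independent evidence of a direction. Over all probes with a symbol, 42.4% were called lower and 42.6% higher. PLA2G4A, the cytosolic phospholipase that frees the arachidonic acid used by PTGS2, had -4.23, -3.81, -4.09 and -3.81, a reduction of more than 2 fold on each array. Its mean of -3.99 ± 0.21 was 15.9-fold lower in DF-1 (adjusted p = 1.66e-07 by limma, n = 4). EPHX2, a hydrolase of epoxide-bearing fatty acids, had -1.22 ± 0.18 (adjusted p = 0.000177). ANXA1, a protein known to restrain phospholipase activity, averaged -0.82 ± 0.28 (adjusted p = 0.00327) and did not reach 2 fold as deposited, but passed it at -1.03 once each array was shifted to a gene probe median of 0. PLA2R1, a cell surface receptor of secreted phospholipases, was the one higher gene, with 1.19, 1.37, 1.28 and 1.10 and a mean of 1.23 ± 0.12 (adjusted p = 0.000122). That call was lost, at 0.96, when the arrays were shifted to a negative control median of 0.

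CXCL14 had log2 ratios of -5.71, -5.33, -5.42 and -4.88, or 1.91%, 2.49%, 2.34% and 3.39% of the CEF signal on arrays 1 to 4. The distance between its lowest array, array 1, and its highest, array 4, was 0.83, the widest among the 5 genes. The mean was -5.34 ± 0.34 (SD, n = 4), a 40.4-fold lower signal in DF-1, at rank 58 from the lowest of the gene probes.

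IL16 had log2 ratios of -3.57, -3.21, -3.60 and -3.04, or 8.43%, 10.8%, 8.23% and 12.2% of the CEF signal. It was the least reduced of the 5 genes on 4 of 4 arrays, and arrays 1 and 3 lay below arrays 2 and 4. The mean was -3.36 ± 0.28 (SD, n = 4), 10.2-fold lower in DF-1, at rank 361 from the lowest.

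Of 112 listed cytokines, chemokines and their receptors, 14 had a symbol on the arrays. Apart from CXCL14 and IL16, 6 of 12 were called lower, 2 higher and 4 neither way, with a median log2 ratio of -1.31. The shares over all probes with a symbol were 42.4% lower and 42.6% higher, with a median of -0.85. TRAF3IP2, an adaptor of interleukin-17 receptors, averaged -3.70 ± 0.41 (adjusted p = 7.67e-07 by limma, n = 4). TNFSF15, a cytokine of the tumor necrosis factor family, had -4.27, -3.17, -3.73 and -3.04, with a mean of -3.55 ± 0.56 (adjusted p = 2.91e-06), between CXCL14 and IL16. IL8, a chemokine of neutrophils and, like PTGS2, a src-induced transcript in chicken fibroblasts, had -3.04, -1.76, -3.01 and -1.70. As with IL16, arrays 1 and 3 gave the lower values, here by more than 1 log2 unit, and the mean was -2.38 ± 0.75 (adjusted p = 0.000116). IL1R1, the signalling receptor of interleukin-1, had -1.67, -0.35, -1.63 and -0.25, again lower on arrays 1 and 3. Its mean of -0.98 ± 0.78 missed 2 fold as deposited (adjusted p = 0.0208). Leaving out array 2 or array 4 brought it to -1.18 or -1.22, past 2 fold. So did a shift of each array to a gene probe median of 0, at -1.19. IL8 and IL1R1 were chosen for mention after their values had been seen. The same order of arrays was present in genes of other lists, such as NRG1 and RIPK2, and the opposite order in PLAU. It is thus not particular to cytokine genes.

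At the upper end of that list, IL13 averaged 0.24 ± 0.53 (adjusted p = 0.359) and IL23R, an interleukin-23 receptor chain, -0.83 ± 0.43 (adjusted p = 0.00701), neither past 2 fold. IL1RL1, the receptor of interleukin-33 in mammals, was higher in DF-1 at 1.68 ± 0.33 (adjusted p = 5.92e-05), and TNFRSF18, a receptor of the tumor necrosis factor family known from T cells, at 1.96 ± 0.43 (adjusted p = 4.68e-05). After each array was shifted to a gene probe median of 0, the count of lower genes in the list, CXCL14 and IL16 included, was 11 in place of 8, since IFNGR2, IL1R1 and IL23R then passed 2 fold. The 2 higher genes stayed at 2 under that shift. Over all gene probes the same shift took the lower calls from 2548 to 3262 and the higher calls from 2571 to 1749. More lower calls under that shift are thus not particular to this list.

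IGFBP7 had log2 ratios of -5.43, -5.74, -5.74 and -5.60, or 2.32%, 1.87%, 1.87% and 2.06% of the CEF signal on arrays 1 to 4. Array 1 was here the least reduced, unlike in the other 4 genes. The mean was -5.63 ± 0.15 (SD, n = 4), 49.4-fold lower in DF-1, at rank 38 from the lowest.

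Of 27 listed genes of the insulin-like growth factor axis, 3 had a symbol. The 2 besides IGFBP7 were both called lower, as were 42.4% of all probes with a symbol. IGFBP2, a binding protein of insulin-like growth factors, had -2.49, -2.27, -2.33 and -1.98, with a mean of -2.27 ± 0.21 (adjusted p = 4.34e-06 by limma, n = 4). GRB10, an intracellular adaptor that restrains insulin and insulin-like growth factor receptors, had -1.59, -1.10, -1.12 and -1.03, with a mean of -1.21 ± 0.26 (adjusted p = 0.00028). Every array of both genes was thus lower in DF-1, by less than in IGFBP7. As deposited, array 1 of GRB10 lay apart from its other 3 arrays. Array 1 also had the lowest gene probe median of the arrays, at -0.04.

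SERPINE2 had log2 ratios of -4.08, -4.15, -4.03 and -3.89, or 5.92%, 5.61%, 6.13% and 6.73% of the CEF signal. Its arrays lay within 0.26 of each other, the narrowest span of the 5 genes. The mean was -4.04 ± 0.11 (SD, n = 4), 16.4-fold lower in DF-1, at rank 196 from the lowest.

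Of 47 listed serpins and proteins of the plasminogen and thrombin systems, 6 had a symbol. The 5 besides SERPINE2 were divided between 3 lower and 2 higher, with a median of -1.06. Among all probes with a symbol, 42.4% were called lower and 42.6% higher. The inhibitor SERPINF2, alpha-2-antiplasmin, had -3.36, -3.21, -3.40 and -3.05 and a mean of -3.25 ± 0.16 (adjusted p = 3.94e-07 by limma, n = 4). PLAU, the urokinase protease that SERPINE2 inhibits, was lower too, with -1.30, -1.52, -1.10 and -1.87 and a mean of -1.45 ± 0.33 (adjusted p = 0.000147). SERPINI1, neuroserpin, an inhibitor of tissue plasminogen activator, had -1.06 ± 0.25 (adjusted p = 0.000598), which shrank to -0.99 without array 3. The lower genes thus held inhibitors and the protease PLAU, and the higher genes likewise held an inhibitor and a protease. TFPI, the inhibitor of the tissue factor pathway, was higher in DF-1 at 2.19 ± 0.38 (adjusted p = 1.71e-05), and so was MASP1, a serine protease of the lectin complement pathway that also acts on clotting proteins, at 2.56 ± 0.29 (adjusted p = 3.3e-06).

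A list of 90 genes drawn up for the senescence-associated secretory phenotype of mammalian cells held 18 genes with a symbol, the 5 genes among them. It was drawn up with earlier results of these data known, and being listed does not show that a gene belongs to that phenotype. Of the other 13, 6 were called lower, 3 higher and 4 neither way, with a median log2 ratio of -0.93. All probes with a symbol had a median of -0.85, with 42.4% called lower and 42.6% higher. The 5 followed genes were the 5 lowest of the 18, and no other member of the list reached the level of IL16. Since they had been picked for low ratios in this contrast, nothing is read from that order. The 6 other lower genes ran from -2.73 ± 0.27 for ANGPT1, a growth factor of vessels, through TGFB2, IL8, IGFBP2 and PLAU to -1.32 ± 0.17 for FN1, fibronectin, which has 3 probes. BDNF, a neurotrophin, was higher at 2.59 ± 0.51 (adjusted p = 1.49e-05 by limma, n = 4). NRG1, a ligand of ERBB receptors, had 2.04, 2.64, 1.86 and 3.21 and a mean of 2.44 ± 0.61 (adjusted p = 4.26e-05), and INHBA, the activin A subunit, had 1.37 ± 0.11 (adjusted p = 6.12e-05). The list thus held growth factors on both sides of 0, with BDNF, NRG1 and INHBA above and ANGPT1 and TGFB2 below. JUN, a transcription factor subunit whose symbol came from its RefSeq accession and not from the study's choice, averaged 0.37 ± 0.15 (adjusted p = 0.0698). With each array at a gene probe median of 0, BMP2 and HBEGF also passed 2 fold and the lower genes came to 13 of 18 in place of 11. That shift also raised the lower calls over all gene probes, from 2548 to 3262, so the rise is not particular to this list.

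Of 86 listed genes of NF-kB and inflammatory signalling, the pathway that drives PTGS2 and IL8 in mammalian cells, 7 had a symbol. Of these, 3 were called higher, 2 lower and 2 neither way, against 42.6% higher and 42.4% lower over all probes with a symbol. SOCS1, an inhibitor of cytokine receptor signalling, had 3.15, 3.48, 2.86 and 3.61, with a mean of 3.27 ± 0.34 (adjusted p = 1.03e-06 by limma, n = 4). RIPK2, a kinase of intracellular pattern receptors, had 2.22 ± 0.81 (adjusted p = 0.000263), and SOCS2 had 1.62 ± 0.49 (adjusted p = 0.000222). SOCS3, of the same inhibitor family as SOCS1, was lower at -1.57 ± 0.16 (adjusted p = 3.36e-05). EGR1, an immediate early transcription factor, was lower at -1.09 ± 0.36 (adjusted p = 0.00103), a call that was lost, at -0.91, without array 1. TLR4, the lipopolysaccharide receptor, averaged 0.35 ± 0.21 (adjusted p = 0.0888). The median of this list was 0.37, the value of JUN, beside -0.85 over all probes with a symbol and 0.22 over all gene probes. None of the 7 genes encodes a subunit of NF-kB itself. The part of these regulators in the low ratios of the 5 genes was not tested.

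**Figure D3:**
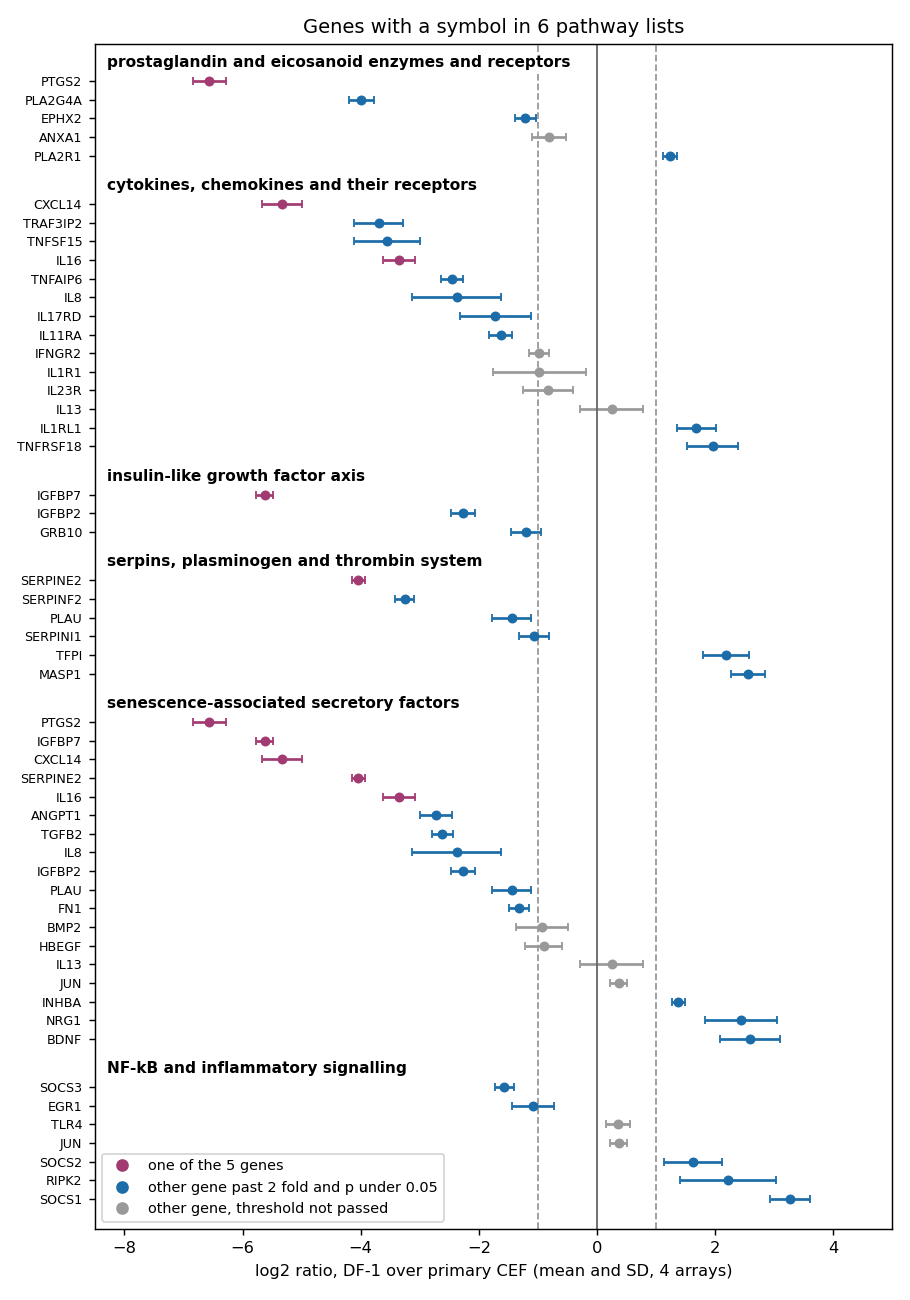
Mean log2 ratio of DF-1 over primary CEF with its SD over 4 arrays (horizontal axis) for the genes with a symbol in 6 lists (rows), with the 5 genes in purple, other genes past 2 fold and an unadjusted p under 0.05 in blue, the rest in grey, and dashed lines at 2 fold. The 5 genes, which were picked for their low ratios, stand left of most others in their lists. Genes of the NF-kB list lie on both sides of 0.

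The order of the 5 genes was compared within arrays, where both genes of a pair share the hybridization. PTGS2 lay below IGFBP7 on 4 of 4 arrays, by -0.94 ± 0.38 (SD, n = 4), and their ranges did not overlap. IGFBP7 and CXCL14 did not differ beyond their spread, at -0.29 ± 0.42, with IGFBP7 lower on 3 arrays and higher by 0.28 on array 1. CXCL14 lay below SERPINE2 on 4 of 4 arrays by -1.30 ± 0.28, and SERPINE2 below IL16 on 4 of 4 by -0.68 ± 0.25. These are differences between ratios and do not rank the levels of the transcripts, since each probe has its own brightness. With signal over background unknown, they need not rank the true fold changes either.

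The array as a whole moved with part of the spread. Arrays 1 to 4 had gene probe medians of -0.04, 0.20, 0.21 and 0.47 in log2 ratio, and PTGS2, CXCL14, SERPINE2 and IL16 were likewise least negative on array 4. Shifting each array to a median of 0 moved the means of the 5 genes to -6.77 for PTGS2, -5.84 for IGFBP7, -5.55 for CXCL14, -4.25 for SERPINE2 and -3.57 for IL16, so all 5 lay further below 0 than as deposited. That shift moves the mean of every gene probe by the same amount, so its direction is not particular to these genes. The SD over arrays then shrank for 3 genes, to 0.11 for PTGS2, 0.14 for CXCL14 and 0.18 for IL16. It grew to 0.31 for IGFBP7, whose array 1 then stood at -5.39 against -6.07 to -5.94 on the others, and to 0.15 for SERPINE2. As deposited, the SDs of 0.11 to 0.34 compared with a median SD of 0.30 over all gene probes and of 0.26 over the 118 probes with a symbol and a mean under -3.

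**Figure D4:**
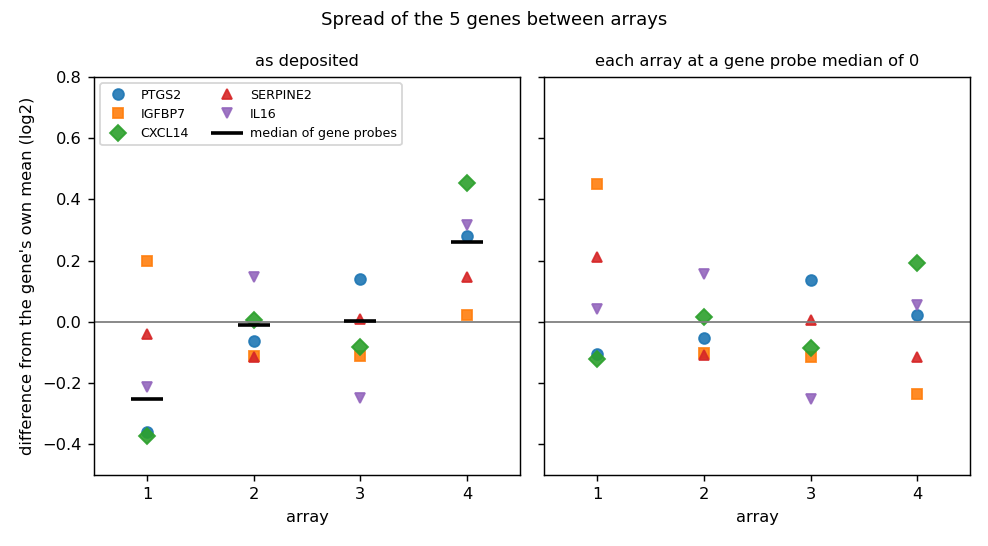
Difference of each array's log2 ratio from the gene's own mean (vertical axis) on arrays 1 to 4 for the 5 genes, as deposited (left, with black bars for the gene probe median relative to its mean over arrays) and with each array at a gene probe median of 0 (right). On the left PTGS2 and CXCL14 follow the bars, lowest on array 1 and highest on array 4, and on the right IGFBP7 stands highest on array 1.

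Markers of the cell types that a whole-embryo culture can hold were read beside the 5 genes. For every marker list, the share over all probes with a symbol was 42.4% called lower and 42.6% higher. All 8 fibroblast markers with a symbol, of 20 listed, were called lower in DF-1, with a median log2 ratio of -2.82 and a range from -4.66 for DCN to -1.32 for FN1. Between these lay MEOX2, a homeobox transcription factor, at -4.63 ± 0.25, and the matrix genes POSTN at -4.60 ± 0.43, LUM at -3.18 ± 0.08, COL6A1 at -2.47 ± 0.14, COL3A1 at -2.09 ± 0.44 and COL5A1 at -1.73 ± 0.24 (SD, n = 4 arrays). The transcripts of all 8, like those of the 5 genes, thus had the weaker signal in DF-1 and the stronger in CEF. Of 16 endothelial markers 4 had a symbol, with CLDN5 at -2.98 ± 0.27 and EGFL7 at -2.83 ± 0.17 called lower. PROX1 at -0.92 ± 0.43 and ENG at -0.80 ± 0.17 were short of 2 fold as deposited. With each array at a gene probe median of 0 they passed it, at -1.13 and -1.01. Of 18 cartilage and bone markers 3 had a symbol and all were called lower, COL11A1 at -5.27 ± 0.28, COL9A3 at -2.14 ± 0.28 and SOX9 at -1.95 ± 0.37, and so was MYOD1, the 1 of 15 muscle markers with a symbol, at -1.22 ± 0.23. The 1 leukocyte marker with a symbol of 26, CD3E, was higher in DF-1 at 1.77 ± 0.35 (adjusted p = 4.67e-05), and none of the 14 epithelial markers had a symbol here. With ratios alone, the level of a marker in either cell type is unknown, and the part of other cell types in the low ratios of the 5 genes was not tested.

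The genes whose 4 ratios were nearest to those of each followed gene were found by the root mean square difference of the log2 ratios over the 4 arrays among all genes with a symbol. Nearest to PTGS2 was CCK, the precursor of cholecystokinin, at 0.129, with -6.77, -6.46, -6.35 and -6.17, followed by CTHRC1, a secreted collagen triple helix repeat protein, at 0.254 and MAB21L1 at 0.330. Nearest to IGFBP7 were FBLN1, the matrix protein fibulin-1, at 0.145, COL4A1, a basement membrane collagen, at 0.278, and TGFBI, a matrix protein induced by transforming growth factor beta, at 0.316. CXCL14 had TGFBI at 0.231 and DKK3 at 0.248 among its nearest. SERPINE2 had the sugar transporter SLC2A10 at 0.0844, the aminopeptidase ANPEP at 0.121 and the potassium channel subunit KCNMB1 at 0.180. For IL16 the nearest were C7orf16 at 0.137, SERPINF2 at 0.144 and AKR1B1, an aldo-keto reductase, at 0.149. The distance describes 4 arrays only, and the size of the mean ratio weighs heavily in it.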

How the data were processed

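The authors labeled DF-1 cRNA with Cy5 and primary CEF cRNA with Cy3, scanned 4 arrays, corrected background, normalized each array by loess and deposited DF-1 over CEF log2 ratios per spot, and another file of the same values as linear ratios with their mean and SD. The log2 of the deposited ratios equaled the log2 table within 5.0e-05. Intensities were not used here, so signal over background is unknown and no filter on dim probes was applied. The number of arrays limits the precision.

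Of 45220 spots, 42034 gene probes were kept and 3186 control or unnamed spots left out, with 0 missing values. Ratios were used as deposited. Some genes from the study's tables of changed genes, such as IL1R1 and ENG, missed 2 fold in these ratios. They passed it once each array was shifted to a gene probe median of 0. With limma 3.58.1 in R 4.3.3, the mean over 4 arrays was tested against 0, 2-sided, and a call needed a mean beyond 1 or -1 in log2 and an unadjusted p below 0.05, as in the study's methods, with Benjamini-Hochberg adjusted p values over all 42034 probes. The thresholds are those of the study, but the counts called here differ from the ones it reports. The study reports fewer higher than lower genes, while the calls here were near even as deposited. Errors are SDs over arrays. The fit was tested on simulated data without shifts of level between arrays, so that test does not bear on the effect of such shifts on the calls. Tables used Python 3.11.15, numpy 2.4.6 and pandas 2.3.3, and figures matplotlib 3.10.9. Symbols were given by accession to 958 probes, 909 from the study's tables and 49 from RefSeq. The 5 genes, gene lists and tests were chosen with earlier results of these data known. Genes were named as follows: the 5 genes, every gene with a symbol in lists with 8 or fewer of them and otherwise the 4 highest and 4 lowest, and the 3 nearest genes of each, with 2 genes that are not reported here left out. IL8, IL1R1, ANGPT1, TGFB2, IGFBP2, PLAU, FN1, IFNGR2, BMP2 and HBEGF were named beyond this rule within longer lists, after their values had been seen. Of several probes for 1 gene, that first in order of probe name was used. Alternatives were other array levels and spreads, each array left out, adjusted p, robust variances, other fold thresholds, medians, averaging of linear ratios and means over probes.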

Additional observations from a re-analysis of the deposited data

Results flagged for a closer look

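Among 74 genes named or listed, 3 had 1 array far from the other 3 by a test on the gap relative to the range (Dixon's criterion), which chance passes in about 1 in 20 genes, and none of PTGS2, IGFBP7, CXCL14, SERPINE2 and IL16 was among them. GRB10, the receptor adaptor listed with IGFBP7, had -1.59 on array 1, while the others lay from -1.12 to -1.03. SLC2A10, the gene nearest to SERPINE2, had -3.83 on array 4, while the others lay from -4.02 to -4.01. SOCS3, of the inflammatory signalling list, had -1.81 on array 4, while the others lay from -1.52 to -1.46. These gaps were read on the ratios as deposited, without a shift of array levels. Array 1 had the lowest gene probe median, -0.04, and array 4 the highest, 0.47. GRB10 and SLC2A10 departed in the direction of their array's level, and SOCS3 against it. The part of array level in these gaps was not tested.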

How the results depend on the processing

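All 45 values of the 5 genes under the alternatives were negative, and 7 moved by more than 1 SD. With each array at a gene probe median of 0, IGFBP7 was at -5.84 and SERPINE2 at -4.25. With each array at a negative control median of 0, IGFBP7 was at -5.90, SERPINE2 at -4.32 and IL16 at -3.63. With a median of 0 and a common spread, IGFBP7 was at -5.84 and SERPINE2 at -4.26. Setting array medians to 0 alone moves the mean of every gene probe by the same amount. IGFBP7 and SERPINE2 passed 1 SD there with the smallest SDs of the 5 genes, 0.15 and 0.11. Leaving out 1 array gave -6.66 to -6.44 for PTGS2, -5.69 to -5.59 for IGFBP7, -5.49 to -5.21 for CXCL14, -4.09 to -4.00 for SERPINE2 and -3.46 to -3.27 for IL16. Over all gene probes, 1545 were higher with each array at a negative control median of 0, in place of 2571. Without the fold threshold 12421 were higher and 5631 lower, and by limma's treat with a 2 fold minimum 879 were higher and 1406 lower. Of the calls, 50.2% were higher as deposited, 34.9% with arrays at a gene probe median of 0, 30.2% with arrays at a negative control median of 0, 35.3% with a common spread, 38.5% by treat and 68.8% without the fold threshold. With 1 array left out, 2253 to 2997 were higher and 2330 to 2881 lower. In the eicosanoid list 0 genes were higher with arrays at a negative control median of 0, since PLA2R1 was then at 0.96. In the NF-kB list 1 to 2 genes were lower with 1 array left out, EGR1 being lost without array 1. Of 175 alternative values of 19 results, 161 stayed within 1 SD or 1.5 times the count and 14 moved. A reversal was defined only for the 45 values of the 5 genes, of which 0 reversed, and not for the counts. Beyond the common shift of the means, the causes were not tested. No paired analysis was possible because the ratios form a single group with no other group to block by replicate number, while the test of the ratios against 0 already uses the pairing of both cell types within an array.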

Other observations

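The positions of the 5 genes were looked up in the gene order of the RefSeq annotation of the chicken assembly GRCg7b, used for names and neighbours alone. They lie on 5 different chromosomes. Of the 50 protein-coding genes within 5 genes on either side of each, 3 had a symbol on the arrays. PLA2G4A, the phospholipase that supplies arachidonic acid, is the gene directly next to PTGS2, with 0 genes between them, and both were lower in DF-1, at -3.99 ± 0.21 for PLA2G4A and -6.56 ± 0.28 for PTGS2. AP1S3, a subunit of a clathrin adaptor complex, lies 1 gene away from SERPINE2 and had -3.95, -3.15, -3.46 and -3.19, with a mean of -3.44 ± 0.37 (adjusted p = 9.45e-07 by limma, n = 4 arrays). TMC3, of the transmembrane channel-like family, lies 1 gene away from IL16 and had 1.27, 1.94, 1.23 and 2.77, with a mean of 1.80 ± 0.72 (adjusted p = 0.000553), so this neighbour was higher in DF-1 while IL16 was lower. With 3 of 50 neighbours named, mostly by the study's own choice of changed genes, no share is read from them.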
